A study of Mus musculus with 2 samples.

Results

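Migratory dendritic cells, marked by the chemokine receptor Ccr7 and the actin-bundling protein Fscn1, were described in immune-enriched cells of mouse tumours from a control group and a group given motolimod, a synthetic agonist of Toll-like receptor 8. A cell was a member if its barcode had at least 300 genes, at least 800 unique molecular identifiers (UMIs, each standing for 1 captured RNA molecule) and at most 10% mitochondrial UMIs. It also had to hold at least 1 Ccr7 UMI, at least 2 Fscn1 UMIs and at least 3 UMIs of the MHC class II gene H2-Ab1, fewer than 3 of the keratin Krt18 and at most 2 of the complement genes C1qa, C1qb and C1qc together. Cells with any UMI of the T cell genes Cd3e and Cd3g or of the neutrophil gene Csf3r were left out. Of 16798 barcodes that passed the cell filter, 54 were members, 45 of 7484 in the control library and 9 of 9314 in the motolimod library. The counts of these genes chose the cells, so their levels are given only as a description.

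The series holds droplet 3′ single-cell RNA sequencing with 1 library per group. Its labels give 5 biological replicates per group without saying whether they were pooled, and bead selection of CD45+ leukocytes after digestion of the tumours with collagenase D and DNase I. The groups are labelled only as control and motolimod, and the tumour model, strain, age, dose and timing are not given in the sources used here. With 1 library per group no difference has a replicate check or a p-value, and every interval below covers counting error only.

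Dendritic cells take up antigen in tissues and, once activated, enter a programme shared by their type 1 and type 2 lineages. They take up less antigen, gain Ccr7, reorganise their cytoskeleton and follow the ligands Ccl19 and Ccl21 through lymphatic vessels to lymph nodes, where they prime T cells. In tumours this state is known for carrying costimulatory molecules together with inhibitory ones such as PD-L1, which is why it is also described as a mature regulatory state.

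In total 127609378 UMIs were counted over 8099 control barcodes and 62057685 over 10037 motolimod barcodes. Among passing barcodes the median depth was 14055 UMIs in the control and 3742.5 in the motolimod library. The members were of more similar depth, with 2269 to 27651 UMIs per cell in the control (median 9743, and 2494 genes) and 1963 to 12849 in the motolimod library (median 8773, and 2184 genes). Their median mitochondrial share was 0.659% and 1.02%. The libraries shared 113 barcodes (1.40% and 1.13% of each), and 0 members had a shared barcode. No doublet caller entered the rule. Scrublet's automatic threshold called 0 doublets in both libraries and so had not worked, and 0 members were among the 448 control and 694 motolimod barcodes with its highest scores.

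The markers fixed for the label were present in both libraries. Ccr7 ranged from 2 to 138 UMIs per control member (median 53) and from 13 to 50 per motolimod member (median 36). Fscn1 ranged from 3 to 203 UMIs (median 32) and from 2 to 46 (median 19). Ccl22, a chemokine that attracts Ccr4-bearing T cells and the only marker outside the rule, had a UMI in 41 of 45 control and 8 of 9 motolimod members. After each member was thinned to 3000 UMIs 35 of 44 control and 6 of 8 motolimod members still had one. In unthinned T cells (297 and 378 cells of median 5692 and 5039 UMIs), which show what free RNA can give, the shares were 1.35% and 0%, the latter allowing up to 0.794%. Other dendritic cell genes were also found, such as the transcription factor Zbtb46 at 71.9 CPM in control and 97.1 CPM in motolimod members, and the growth factor receptor Flt3 at 126 and 166 CPM. CPM here are a gene's UMIs summed over the members of a library and scaled by all their UMIs, and values given as a pair are control first. Itgax, the integrin CD11c, was low, at 30.6 CPM in the control and 0 UMIs in the motolimod members.

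The rule's thresholds did not act alike. Both Ccr7 and Fscn1 were met by 118 control and 24 motolimod barcodes, and H2-Ab1 alone then excluded 39 and 5 of them. Those excluded cells held as much Ccr7 (5479 and 6921 CPM) and Fscn1 (4393 and 4251 CPM) as the members (4553 and 4078 CPM, and 3564 and 2178 CPM). They held less of the other MHC class II genes, with Cd74, the invariant chain, at 3266 and 5410 CPM against 15540 and 19880 CPM in members. Of the 45 control members 19 had only 3 to 6 H2-Ab1 UMIs, and of the 9 motolimod members 1 did. The C1q limit alone excluded 15 and 3 barcodes. For Fscn1, 62 control and 21 motolimod barcodes met every other limit with 0 UMIs. Exactly at its threshold of 2 UMIs stood 0 control and 2 motolimod members, and 0 and 1 further cells had 1. For Ccr7, 8 and 4 barcodes met every other limit with 0 UMIs.

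**Figure D1:**
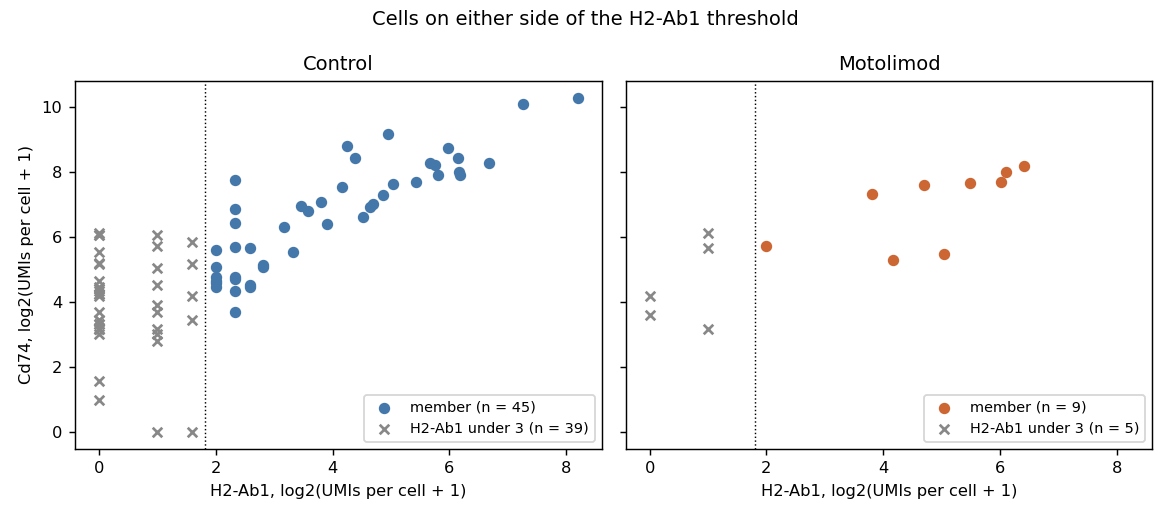
Each symbol is a cell, placed by its H2-Ab1 (x axis) and Cd74 (y axis) UMIs on a log2(UMIs + 1) scale, in the control (left) and motolimod (right) library. Circles are the 45 and 9 members, crosses the 39 and 5 cells that failed on H2-Ab1 alone, and the dotted line is the threshold, which 19 control members passed with 3 to 6 UMIs.

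Members made up 0.601% of passing control barcodes (45 cells, exact interval 0.439 to 0.804) and 0.0966% of passing motolimod barcodes (9 cells, 0.0442 to 0.183), a ratio of 0.161 (0.0691 to 0.333). The rule counts UMIs, and the libraries differed in depth. After every barcode was thinned to 3000 UMIs, 22 of 6601 control and 6 of 5406 motolimod barcodes met it, and the ratio was 0.333 (0.111 to 0.847). Without the H2-Ab1 limit, an alternative chosen after the data were seen, 84 and 14 cells gave a ratio of 0.134 (0.0702 to 0.237). The share of type 1 conventional dendritic cells (cDC1, taken as cells with at least 2 UMIs of Xcr1 and Clec9a together, 60 and 13 cells) had a ratio of 0.174 (0.0877 to 0.321). That of type 2 cells (cDC2, at least 2 UMIs of Cd209a and none of Xcr1 or Clec9a, 48 and 35 cells) was 0.586 (0.368 to 0.925). Within the 3 kinds together, migratory cells were 29.4% of 153 control cells (22.3 to 37.3) and 15.8% of 57 motolimod cells (7.48 to 27.9). The ratio of 0.537 had an interval from 0.231 to 1.11, so with 9 motolimod members a difference in that share was not detectable. With Fscn1 of at least 3 UMIs it was 0.433 (0.165 to 0.967). Without the H2-Ab1 limit it was 0.516 (0.271 to 0.915). In the other settings the interval reached above 1. After thinning to 3000 UMIs that ratio was 0.818 (0.271 to 2.08). Bead selection and the other cells of each library enter the first denominator and not the second.

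Set beside cDC1 and cDC2 cells, the members held more of genes such as Cacnb3, Ccl22 and Il4i1 and of most listed migration and cytoskeleton genes (8 of 9 compared) and regulatory molecules (5 of 7). They held less of genes such as Alox5ap, Cd53 and Cd68. These are descriptions and not tests, since the cells were chosen from the same counts. Of 1193 genes with a mean of at least 100 CPM over the 3 kinds of cell within each library, 102 were at least 2-fold higher in members than in both cDC1 and cDC2 in both libraries (8.55%), and 115 were at least 2-fold lower (9.64%).

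By the smallest of its 4 ratios the leading gene was Cacnb3, a calcium channel subunit, at 491 CPM in control and 860 CPM in motolimod members against 8.06 CPM or less in the other dendritic cells (smallest ratio 80.7). Zmynd15 followed, with 347 and 666 CPM in members. Ccl22 came next with a smallest ratio of 58.5, then Il4i1, a secreted amino acid oxidase that restrains T cells, with 55.4. Further leading genes were the tetraspanin Cd63, the cytokine signalling suppressor Socs2, the T cell attractant Ccl5, the inhibitory ligand Cd200, the fatty acid carrier Fabp5 and the tetraspanin Tspan3. AW112010, Tbc1d4, the actin regulator Marcksl1, the adaptor Samsn1 and the receptor accessory protein Ramp3 completed the highest 15, with smallest ratios from 11.1 to 13.9. AW112010 and Ccl5 were also found in T cells, at 2390 and 2646 CPM in the control library.

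The 10 genes lowest in members were led by Alox5ap, the 5-lipoxygenase activating protein of leukotriene synthesis. It stood at 53.9 and 83.2 CPM in members and at 1315 to 1485 CPM in cDC1 and cDC2 cells. The others were the tetraspanin Cd53, the endolysosomal protein Cd68, the creatine kinase Ckb, Olfm1, the inhibitory Fc receptor Fcgr2b, properdin (Cfp), the RNA-decay factor Zfp36l2, the lysosomal amidase Naaa and the cyclin Ccnd1. Naaa had 16.2 CPM in control members and 0 UMIs in motolimod members, against 1183 and 1451 CPM in cDC1 cells, and 8 of its 9 control UMIs were in 1 cell. Ckb and Zfp36l2 also had 0 UMIs in motolimod members, where the floor of 3 counts equals 41.6 CPM.

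**Figure D2:**
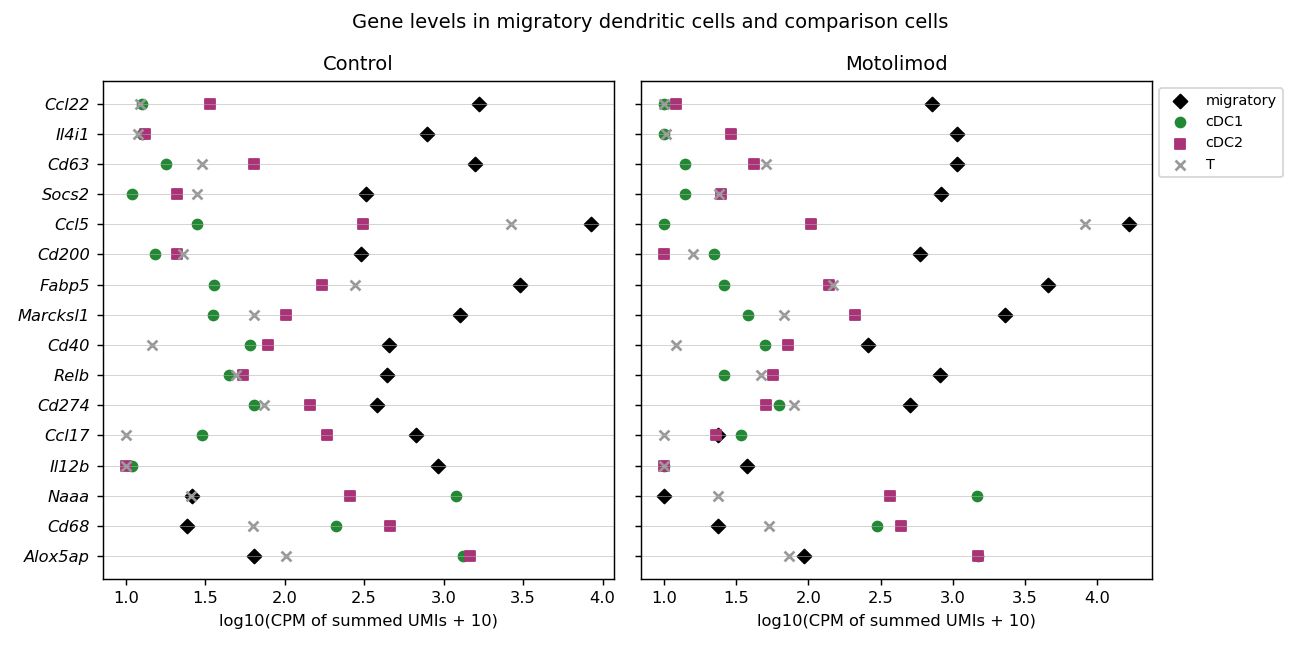
Summed CPM of each kind of cell, plus 10, on a log10 scale (x axis) for 16 genes (y axis) in the control (left) and motolimod (right) library, with diamonds for migratory, circles for cDC1, squares for cDC2 and crosses for T cells. Diamonds lie to the right of circles and squares from Ccl22 down to Cd274 in both libraries and to the left of them for Naaa, Cd68 and Alox5ap, while Ccl17 and Il12b are far to the right in the control library only.

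The lists fixed for the members' roles differed in how many genes stood apart from both other kinds of dendritic cell. For migration and the cytoskeleton 8 of the 9 genes compared were higher in all 4 comparisons and 0 lower. They were Marcks, Marcksl1, Myo1g, the adhesion ligand Icam1, Tmem123, Samsn1, Cd63 and Tbc1d4. For regulatory molecules it was 5 of 7, namely Cd274 (PD-L1), Cd200, Il4i1, Socs2 and the protease inhibitor Spint2. Cd274 was at 369 CPM in control and 499 CPM in motolimod members, against 40.7 to 134 CPM in the other dendritic cells. Of the costimulation genes only Cd40, the receptor for T cell help, was higher in all 4 (1 of 5 compared). The maturation marker Cd83 was at 958 and 832 CPM in members and at 372 to 461 CPM in cDC1 and cDC2 cells.

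Of the antigen presentation genes some stood apart from both other kinds, to be read against the 8.55% higher and 9.64% lower over all genes compared. Of 15 MHC class I pathway genes compared, 5 were higher in all 4 comparisons, namely H2-Q4, H2-Q6, H2-Q7, the light chain B2m and the proteasome activator Psme2, and 0 were lower. Of 8 MHC class II genes, 0 were higher and 2 were lower, the peptide-loading chains H2-DMa and H2-DMb1, and 6 were not past 2-fold in all 4. The difference between the classes was not tested. H2-DMb1 stood at 77.3 and 180 CPM in members against 979 to 1391 CPM in the other cells. H2-Ab1 itself was at 2484 and 4855 CPM against 9846 to 10820 CPM, although every kind of dendritic cell had to hold at least 3 of its UMIs. March1, the ubiquitin ligase that turns MHC class II over, had 0 UMIs in members of both libraries and 42.9 to 80.6 CPM in cDC1 and cDC2 cells.

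NF-kB is the transcription factor family that drives dendritic cell maturation. Of 12 listed NF-kB genes compared, 6 were higher in all 4 comparisons and 0 lower. They were the subunits Rel, Relb and Nfkb2, the kinase Map3k14 that starts the alternative pathway, the adaptor Traf1 and the survival gene Bcl2a1d, whose reads may be shared with its near-identical copy Bcl2a1b. Relb was at 433 and 804 CPM in members and at 16.1 to 47.1 CPM in the other dendritic cells. Of 12 genes compared on the list of transcription factors, 3 were higher, namely Etv3, Nr4a3 and Irf1. Nr4a1, an early response gene, was lower, at 80.9 and 97.1 CPM against 411 to 772 CPM.

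The promoters of Rel and Nfkb2 are shown because both subunits stood above the other dendritic cells and both held a match to the NF-kB consensus. The RefSeq promoters for GRCm38.p6 covered 17 of the 20 NF-kB genes, and 8 of these (47.1%) held one, on either strand, in the 250 bases before the start. Of all 27025 genes covered 8.23% did. The 8 NF-kB genes were Rel, Nfkb2, Bcl2l1, Nfkbia, Nfkbie, Tnfaip3, Tnfrsf9 and Tnip1. Of the other genes higher in all 4 comparisons, Map3k14, Traf1 and Bcl2a1d held no match in that window, and the Relb promoter was not analysed here. The sequences of Rel and Nfkb2 carry the matches in capitals, which overlap because the consensus is nearly its own reverse complement. The Rel promoter, on chr11:23770970-23771219 of the minus strand, held 1 stretch from 81 to 92 bases before the start. The Nfkb2 promoter, on chr19:46304487-46304736 of the plus strand and for the first of 3 listed starts, held 2 stretches from 1 to 39 bases before it. A match is a run of letters and was not tested as a binding site.
Rel: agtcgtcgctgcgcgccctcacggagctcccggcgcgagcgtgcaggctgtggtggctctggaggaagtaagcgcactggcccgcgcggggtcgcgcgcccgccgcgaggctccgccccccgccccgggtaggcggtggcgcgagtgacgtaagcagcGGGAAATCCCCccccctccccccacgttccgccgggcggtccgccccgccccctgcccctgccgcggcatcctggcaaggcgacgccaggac
Nfkb2: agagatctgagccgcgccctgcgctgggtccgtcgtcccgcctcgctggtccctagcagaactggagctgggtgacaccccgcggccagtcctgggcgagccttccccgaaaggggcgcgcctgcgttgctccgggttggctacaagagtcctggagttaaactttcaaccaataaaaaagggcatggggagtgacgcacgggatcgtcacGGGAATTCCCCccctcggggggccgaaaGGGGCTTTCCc

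The defining markers of both conventional lineages were low in the members, while the longer lists of lineage genes were less uniform. The 6 cDC1 markers summed to 165 CPM in control members and 13.9 CPM in motolimod members, against 2625 and 2563 CPM in cDC1 cells. One control member alone held 36 of those cDC1 marker UMIs, 20 of them Wdfy4 and 8 of them Naaa, and it was also the member with the most cell cycle UMIs, 34 of Ube2c among them. The 5 cDC2 markers summed to 138 and 69.4 CPM, against 2024 and 2355 CPM in cDC2 cells. These markers include Xcr1, Clec9a and Cd209a, whose counts chose the cDC1 and cDC2 cells. The sums in those cells are thus partly set by the rules and are given only as a description. In the control library 16 of 45 members had a UMI of a cDC1 marker and 20 of a cDC2 marker, 6 had both and 15 neither. In the motolimod library the counts were 1 and 2 of 9, with 0 having both and 6 neither. Irf8 and Batf3, the transcription factors of the cDC1 lineage, were present all the same, at 1172 and 333 CPM in control and 818 and 291 CPM in motolimod members. In the control library Irf8 was at 1759 CPM in cDC1 cells and 130 CPM in cDC2 cells. Of the longer cDC1 list 2 of 5 genes compared, Naaa and Cd24a, were lower than in both other kinds and 0 were higher. Of the cDC2 list 0 of 3 were lower and 0 higher. Klrd1, a subunit of a natural killer cell receptor and on the cDC2 list, was at 86.3 CPM in control members and 249.7 CPM in motolimod members (11 of 45 and 5 of 9 cells), a ratio of 2.89 (1.58 to 5.07) that was 1.1 in thinned members. It was at 416 and 422 CPM in cDC2 cells and at 467 and 705 CPM in T cells, and the part of free RNA in that ratio was not tested.

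The control members differed widely among themselves. Ccl17, the second ligand of Ccr4, had a UMI in 20 of 45 cells and reached 138 UMIs in 1, and 2 cells held 60.7% of its 369 UMIs. Il12b, the p40 subunit of interleukin-12, had a UMI in 25 cells and reached 197 in 1, and 2 cells held 62.6% of its 511 UMIs. At least 4 UMIs of Ccl17 were found in 14 cells, at least 4 of Il12b in 14, and both in 6. Ccl5 ranged from 0 to 580 UMIs (median 72), and 10 cells had under 4.

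Across the 45 control cells, which share 1 library and differ in depth, Spearman correlations of per-cell CPM describe which genes ran together. Ccl22 ran with Ccl17 (0.67) and with Cd40 (0.62), and Ccr7 with Cd83 (0.59) and with the cytokine Il1b (0.51). Il12b ran against Tnfrsf9 (-0.62), a costimulatory receptor, and against Fabp5 (-0.54), Il1b (-0.52) and Socs2 (-0.51). With a cell's total UMIs Il12b had a correlation of 0.29. Tnfrsf9 had -0.43, Fabp5 -0.24, Il1b -0.25 and Socs2 -0.25, and the part of depth in these opposed pairs was not tested. Fabp5, Socs2 and Tnfrsf9 ran together (0.52 to 0.54). Ccl5 ran against Cd74 (-0.61), while the pair Cd74 and H2-Aa had the highest value (0.82). The 9 motolimod cells were too few for such a description.

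The comparison of the libraries asked how the members' RNA differed between the motolimod and control groups. With motolimod the members held far less Il12b and Ccl17, less Ccl22 and Tnfrsf9, and more Isg15, Ifi27l2a and Socs2. Cd70 was also lower, but within 2-fold in thinned members. MHC class II genes outside the rule had ratios modestly above 1. Of 1285 genes with a mean of at least 100 CPM over the libraries, outside the rule, 142 had motolimod levels at least 2-fold higher (11.1%) and 96 at least 2-fold lower (7.47%), with a median log2 ratio of 0.07. Counts of genes per list below are to be read against these shares. Few cells carry the values compared. When the member with the most UMIs of each gene was left out of each library, a setting chosen after the data were seen, 88 of the 142 and 95 of the 96 were still past 2-fold. All genes recompared in that way gave 57 higher and 123 lower, and leaving out 1 of 9 cells takes more of a gene than 1 of 45.

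**Figure D3:**
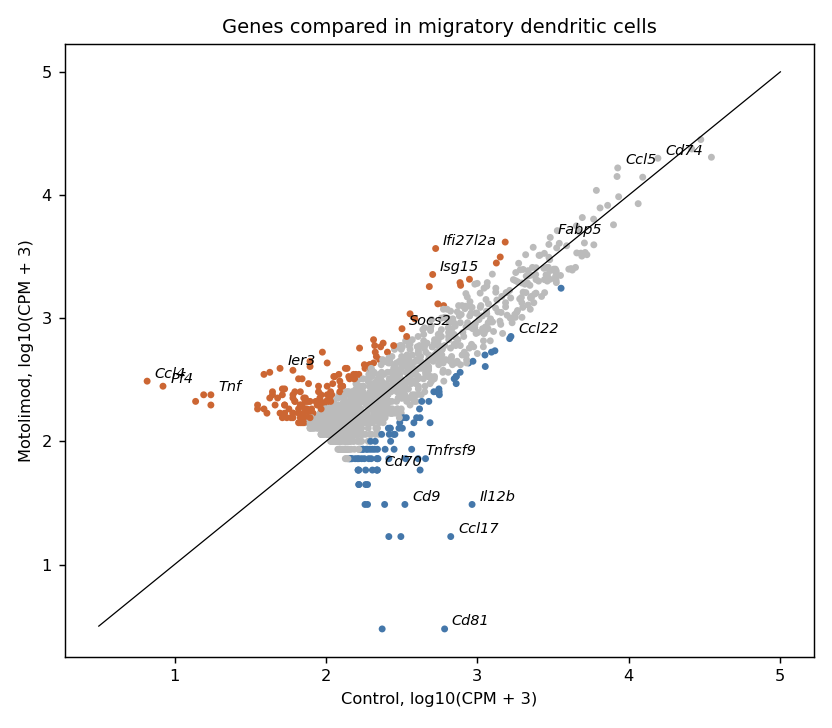
Each point is 1 of 1285 genes, placed by its level in control (x axis) and motolimod (y axis) members as log10(CPM + 3), with the line of equal levels. The 142 genes at least 2-fold higher with motolimod are orange, the 96 at least 2-fold lower are blue, and Ccl17, Il12b and Cd81 lie far below the line.

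Among the chemokines, Ccl22 (chr8:94745590-94751699, plus strand of mm10) was at 1661 CPM in control members (0 to 122 UMIs per cell, median 10) and at 707 CPM in motolimod members. The 9 motolimod cells held 1, 5, 27, 1, 5, 2, 0, 7 and 3 Ccl22 UMIs, so 1 cell held 52.9% of them. The ratio was 0.426 (0.315 to 0.565), and 0.254 without the top member of each library. The motolimod cells lay within the control range and below its median in all but 1 cell. Ccl17, its neighbour on the chromosome (chr8:94810453-94812036, plus strand), was at 663 CPM in the control and at 13.9 CPM, a single UMI, in the motolimod library, a ratio of 0.0209 (0.000528 to 0.117). Without the top member of each library that ratio was 0.0980. Both genes had 0 UMIs in motolimod T cells. Thinned to 3000 UMIs, 11 of 44 control and 0 of 8 motolimod members had a Ccl17 UMI.

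Ccl5 (chr11:83525778-83530518, minus strand) was the most abundant listed chemokine in UMIs. It was at 8434 CPM in control and 16590 CPM in motolimod members, a ratio of 1.97 (1.84 to 2.10). The motolimod cells held 328, 2, 79, 379, 16, 5, 12, 282 and 93 Ccl5 UMIs, with 3 of the 9 cells far above the rest and all inside the control range of 0 to 580. In T cells, which make Ccl5 themselves, it was at 2646 and 8233 CPM. Cxcl16, the ligand of Cxcr6, was at 823 and 1193 CPM, a ratio of 1.45 (1.14 to 1.83). Ccl4 rested on 22 UMIs in 3 motolimod cells against 2 UMIs in 1 control cell, a ratio of 84.9 (20.9 to 745). A Ccl4 UMI was found in 42.8% and 55.8% of T cells, and the part of free RNA in this ratio was not tested. Of 6 chemokines compared, 2 were higher (Ccl4 and Cxcl9) and 2 lower, against 11.1% and 7.47% of all genes compared. Their median log2 ratio was 0.76. Cxcl9, at 53.9 and 180 CPM, had 9 motolimod UMIs in the member that held all Pf4 UMIs and 4 in another. The median was 0.36 with Fscn1 of at least 3 UMIs. It was 0.31 without the Pf4 member, a setting chosen after the data were seen.

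Among the cytokines, Il12b (chr11:44400063-44414033, plus strand) was at 919 CPM in control members and at 27.7 CPM in motolimod members, where 1 cell held both UMIs. The ratio was 0.0302 (0.00365 to 0.110), and 0.0721 without the top member of each library. The control cells ranged from 0 to 197 UMIs with a median of 1, and 14 of 45 held at least 4, while no motolimod cell held more than 2. Thinned, 19 of 44 control and 1 of 8 motolimod members had a UMI, and 0 T cells in either library did. Il1b was at 829 and 1248 CPM, a ratio of 1.51 (1.19 to 1.89), with a UMI in 27 of 45 control cells and 8 of 9 motolimod cells (22 of 44 and 7 of 8 thinned, against 10.8% and 14.8% of unthinned T cells). Tnf had 17 UMIs, all in 1 motolimod cell, against 8 in the control. Of 5 cytokine genes compared, 1 was higher and 1 lower, against 11.1% and 7.47% of all genes compared. Their median log2 ratio of -0.22 became 0.06 with the mean of per-cell CPM and 0.18 with Fscn1 of at least 1 UMI.

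Costimulatory molecules, which give T cells the accessory signal for activation, had ratios below 1 for 5 of 7 genes compared. Cd70, the ligand of CD27, was at 216 CPM in the control (0 to 32 UMIs per cell) and at 55.5 CPM with motolimod, on 4 UMIs in 3 cells, a ratio of 0.257 (0.0690 to 0.676) that was 0.611 in thinned members. Cd80 was at 207 and 83.2 CPM, on 6 motolimod UMIs, a ratio of 0.403 (0.145 to 0.903). The other 5 compared were within 2-fold. Cd40 was at 446 and 250 CPM (ratio 0.560, 0.327 to 0.904), Cd86 at 235 and 180 CPM (0.766, 0.397 to 1.36) and Cd83 at 958 and 832 CPM (0.869, 0.654 to 1.14). Above 1 were Tnfsf9, at 340 and 458 CPM, and Cd1d1, at 111 and 153 CPM. In all, 0 were at least 2-fold higher and 2 at least 2-fold lower, against 11.1% and 7.47% of all genes compared. The median log2 ratio of the list was -0.39, against 0.07 over all genes compared. Tnfrsf9, or 4-1BB, was at 403 CPM against 69.4 CPM, on 5 motolimod UMIs (0.172, 0.0554 to 0.408).

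Regulatory molecules, which restrain T cells or cytokine signals, had ratios above 1 for 8 of 9 genes compared. Socs2 was at 315 CPM in control members (0 to 11 UMIs per cell, median 3) and 818 CPM in motolimod members, a ratio of 2.60 (1.90 to 3.51). The 9 motolimod cells held 4, 1, 4, 14, 11, 1, 1, 4 and 19 Socs2 UMIs, so every cell had at least 1 and 2 lay above every control cell in UMIs. Socs3 had 17 motolimod UMIs, 58.8% of them in 1 cell, and a ratio of 4.86 (2.48 to 9.25), which was 1.38 in thinned members. Cd200 was at 293 and 583 CPM, a ratio of 1.99 (1.38 to 2.81). Cd274 was at 369 and 499 CPM, and its ratio of 1.35 had an interval from 0.923 to 1.94. Il4i1 was at 778 and 1068 CPM (1.37, 1.06 to 1.75). In all, 2 were at least 2-fold higher and 0 lower, against 11.1% and 7.47% of all genes compared. The median log2 ratio of the list was 0.57.

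Type I interferon is the antiviral cytokine whose target genes include Isg15, a ubiquitin-like protein. Isg15 (chr4:156199424-156200818, minus strand) was at 503 CPM in control members (0 to 33 UMIs per cell, median 3) and at 2261 CPM in motolimod members, a ratio of 4.49 (3.68 to 5.47). The 9 motolimod cells held 5, 51, 15, 2, 32, 2, 1, 47 and 8 Isg15 UMIs. The highest 2 lay above every control cell, and the other 7 fell inside the control range. The median per-cell level was 299 CPM in the control and 623 CPM with motolimod. Thinned, 22 of 44 control and 7 of 8 motolimod members had a UMI. In unthinned T cells the shares were 42.1% and 53.2%, so the depths differ and the shares cannot be compared directly. In cDC1 cells Isg15 was at 420 and 774 CPM, and in cDC2 cells at 835 and 744 CPM.

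Ifi27l2a (chr12:103442167-103443680, minus strand), also an interferon-inducible gene but outside the fixed list, was among the 10 highest ratios. It was at 527 CPM in the control (0 to 47 UMIs per cell, median 2) and at 3676 CPM with motolimod, a ratio of 6.98 (5.89 to 8.27). The 9 motolimod cells held 7, 49, 29, 3, 12, 7, 2, 66 and 90 Ifi27l2a UMIs, with 3 above every control cell. The median per-cell level was 275 and 1609 CPM. T cells held 1724 and 1853 CPM, cDC1 cells 514 and 685 CPM and cDC2 cells 1909 and 3067 CPM. In the 5 motolimod cells that failed on H2-Ab1 alone, Isg15 was at 141 CPM and Ifi27l2a at 211 CPM, below both sets of members. With the H2-Ab1 limit removed the ratios were 3.68 for Isg15 and 5.81 for Ifi27l2a.

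Of the 24 listed interferon genes only 5 reached the level for comparison, and 2 of these, Isg15 and the transcription factor Irf7, were higher. Over all genes compared 11.1% were higher. Irf7 rested on 16 motolimod UMIs in 5 cells and 38 control UMIs, a ratio of 3.25 (1.69 to 5.97). Among those not called, Oasl1 had a ratio of 1.15 (0.528 to 2.25) and the membrane tether Bst2 a ratio of 1.78 (1.23 to 2.53). The median log2 ratio was 0.84, and 0 were lower. Below that level, Oasl2 had 22 control and 11 motolimod UMIs, Usp18 had 17 and 9, and Xaf1 had 18 and 11, in libraries of 556335 and 72095 member UMIs. Other listed genes below it did not share that pattern. The 9 motolimod cells held 1, 2, 1, 1, 0, 0, 0, 1 and 1 Zbp1 UMIs and 0, 0, 0, 0, 0, 1, 0, 1 and 0 Stat2 UMIs. Both genes had more control UMIs than Oasl2. Isg20, Oas2 and Ddx60 had 0 UMIs in motolimod members.

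The Isg15 promoter is shown because Isg15 had the highest ratio of the interferon genes compared. Of 20 listed interferon genes in the RefSeq promoters, 10 held the interferon-stimulated response element core GAAANNGAAA, on either strand, within 250 bases before the start, against 3.46% of all 27025 genes and 0 of 17 NF-kB genes. On chr4:156200819-156201068 of the GRCm38.p6 minus strand there were 3 overlapping matches in 1 stretch, in capitals, from 56 to 78 bases before the start.
Isg15: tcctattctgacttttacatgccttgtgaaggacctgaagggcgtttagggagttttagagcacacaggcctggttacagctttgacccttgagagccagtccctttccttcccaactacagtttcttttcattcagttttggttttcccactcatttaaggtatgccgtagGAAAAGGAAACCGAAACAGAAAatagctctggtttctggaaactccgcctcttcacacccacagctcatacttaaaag

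Of 9 MHC class II genes compared, in members chosen on H2-Ab1, 1 was at least 2-fold higher with motolimod and 0 lower, against 11.1% and 7.47% of all genes compared. All 9 had ratios above 1, with a median log2 ratio of 0.84 against 0.07 over all genes. H2-Aa was at 8347 CPM in control members (7 to 596 UMIs per cell, median 69) and at 14130 CPM in motolimod members (21 to 274, median 108), a ratio of 1.69 (1.58 to 1.81). H2-Eb1 had a ratio of 1.79 (1.65 to 1.93) and Cd74 one of 1.28 (1.21 to 1.35). The cells of the libraries overlapped for each of these genes. The gene past 2-fold was H2-DMb1, at 77.3 and 180 CPM (2.33, 1.15 to 4.42), and its ratio was 1.31 without the top member of each library. Ciita, the master regulator of these genes, had 18 control and 12 motolimod UMIs, with 11 of the 12 in 1 cell. Without the H2-Ab1 limit the ratios of H2-Aa, H2-Eb1 and Cd74 were 1.75, 1.93 and 1.36.

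**Figure D4:**
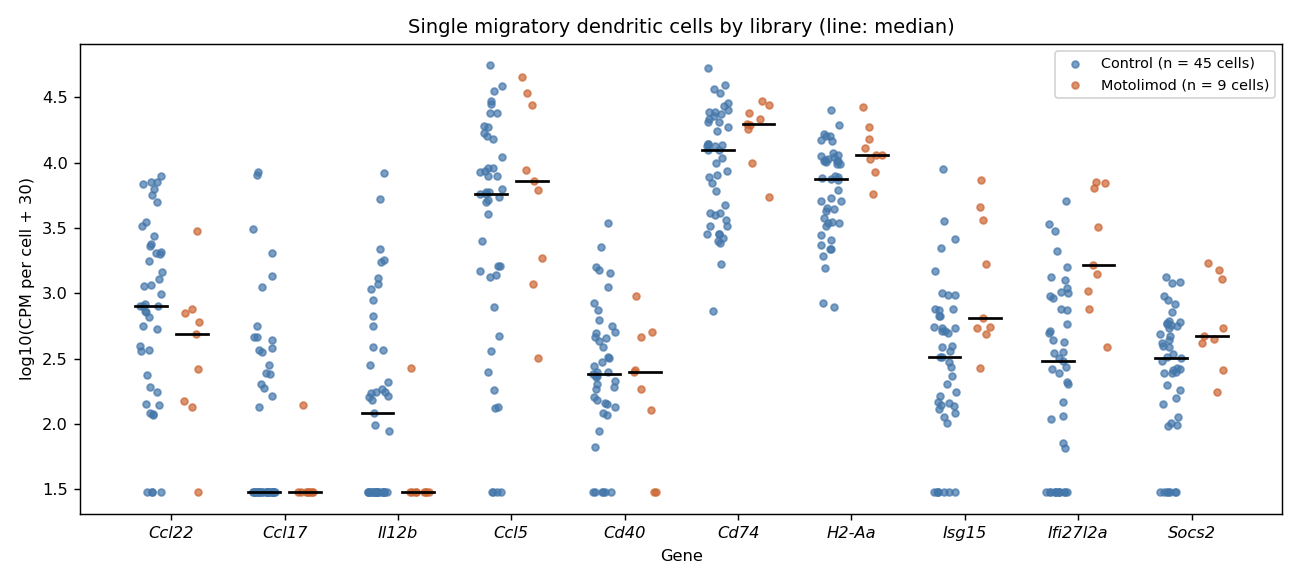
CPM per cell plus 30 on a log10 scale (y axis) for 10 genes (x axis), with a point for each of 45 control and 9 motolimod cells and a line at the median of each library. Ccl17 and Il12b have a UMI in 1 motolimod cell each, and the Ifi27l2a median is 1609 CPM with motolimod against 275 CPM.

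The MHC class I list of 16 genes had 0 past 2-fold in either direction, against 11.1% higher and 7.47% lower over all genes compared. Its median log2 ratio was 0.29, and -0.02 in members thinned to 3000 UMIs. H2-K1 was at 3466 and 4050 CPM (1.17, 1.03 to 1.32, and 0.995 in thinned members) and B2m at 3331 and 3717 CPM (1.12, 0.978 to 1.27). The 11 migration and cytoskeleton genes compared likewise had 0 past 2-fold, with a median of 0.36. Those nearest to it were Anxa3 at 280 and 555 CPM (1.98, 1.36 to 2.82) and Tmem123 at 994 and 1914 CPM (1.93, 1.59 to 2.32).

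The 18 NF-kB genes compared had a median log2 ratio of 0.29, which turned to -0.13 in thinned members. Of them 2 were higher and 2 lower, against 11.1% and 7.47% of all genes compared. Nfkbiz, a nuclear IkB protein, was higher at 66.5 and 319 CPM (4.80, 2.72 to 8.29), with UMIs in 21 of the 45 control cells and 7 of the 9 motolimod cells (8 of 44 and 3 of 8 thinned, against 57.2% and 52.6% of unthinned T cells). Birc2, an inhibitor of apoptosis, was higher at 223 and 458 CPM (2.05, 1.36 to 3.04), but at a ratio of 1.08 in thinned members. Lower were Tnfrsf9 and the inhibitor Nfkbib, at 475 and 208 CPM (0.438, 0.242 to 0.736). Relb was at 433 and 804 CPM (1.86, 1.37 to 2.48), Rel at 575 and 707 CPM (1.23, 0.897 to 1.66) and Nfkb2 at 288 and 361 CPM (1.25, 0.795 to 1.91). In thinned members the ratios of Rel and Nfkb2 were 0.957 and 0.625.

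Of 12 transcription factors compared, 1 was higher (Irf7) and 1 lower, against 11.1% and 7.47% of all genes compared. Their median log2 ratio of 0.34 was -0.06 in thinned members. The lower transcription factor was Irf5, which acts below Toll-like receptors, at 313 and 153 CPM (0.488, 0.239 to 0.895). The receptor of the agonist was not detected. Tlr8 had 0 UMIs in members of both libraries, as did Tlr7, which allows up to 5.39 CPM in the control and 41.6 CPM in the motolimod library. Unc93b1, the chaperone of the endosomal receptors, was at 106 and 111 CPM, below its 247 to 455 CPM in cDC1 and cDC2 cells. Of 10 early response and stress genes compared, 3 were higher, namely Ier3, Atf3 (5.43, 2.85 to 10.1) and the phosphatase Dusp1 (2.12, 1.66 to 2.68), and the chaperone Hspa1a was lower (0.257, 0.0521 to 0.776).

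**Figure D5:**
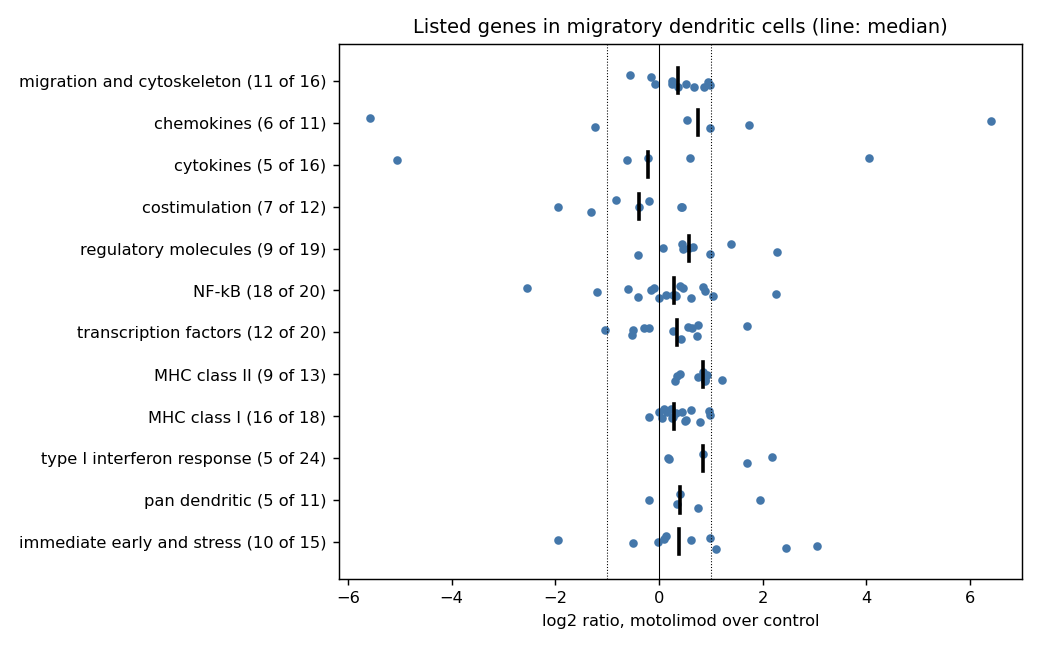
Log2 ratios of motolimod over control (x axis) for the genes of each list that reached 100 CPM (y axis, with how many of how many measured), a point per gene and a line at the median. Dotted lines mark 2-fold, and the MHC class II and interferon lists have medians of 0.84, costimulation one of -0.39.

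The 10 lowest ratios were those of Ccl17, Il12b, the glutathione synthesis enzyme Gclc, Laptm4b, the tetraspanins Cd81 and Cd9, the actin-severing Scin, Gm13546, Nub1 and Tmbim4. Cd81 (chr7:143052739-143067934, plus strand) had 336 UMIs in 22 control cells and 0 in motolimod members, at least 14.5-fold lower against a floor of 3 counts over the group. One control cell held 25.9% of those UMIs. T cells held 75.3 and 6.66 CPM of Cd81, so its level was lower with motolimod there too. Cd9 was at 329 and 27.7 CPM, on 2 motolimod UMIs (0.0843, 0.0101 to 0.309). Gclc had 50.6% of its control UMIs in 1 cell. That cell also held 123 Il12b, 56 Cd81, 26 Laptm4b and 28 Cd9 UMIs, but no Scin. Another control cell held 52 Il12b, 17 Gclc, 87 Cd81, 18 Laptm4b, 21 Cd9 and 33 Scin UMIs. These cells were deep, at 23433 and 24216 UMIs against a median of 9743. The ratios of these genes thus rested partly on shared control cells. Whether such cells were missing among the motolimod members was not tested.

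The 10 highest ratios rested mostly on 1 or a few cells. They were Ccl4, Pf4, the polyamine oxidase Smox, Apoe, Tnf, Nupr1, Selenom, Phf11a, Ier3 and Ifi27l2a. Pf4, the platelet chemokine that the series title names, had all 20 of its motolimod UMIs in 1 member of 4350 UMIs, against 3 in the control, and that member also held 13 of 17 Apoe and 6 of 8 Lyz2 UMIs. The 17 Tnf and 14 Nupr1 UMIs were all in another cell, which also held 64.3% of the Ier3 UMIs, and a further cell held 88.0% of the Selenom UMIs. Only Ifi27l2a among these 10 had a UMI in all 9 motolimod members.

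Genes of other cells moved with some of these results. The 10 monocyte and macrophage markers summed to 93.5 CPM in control members (at most 8 UMIs in a cell) and 527 CPM in motolimod members, where 4 of 9 cells had any and 1 cell held 32 UMIs. In the motolimod members Fcgr1, C1qa, C1qc, Mrc1 and Csf1r were at 0, and T cells held 446 and 502 CPM of the same list. Without the member that held the Pf4 UMIs, a setting chosen after the data were seen, 153 genes were higher and 93 lower, with ratios of 4.72 for Isg15, 7.23 for Ifi27l2a, 0.436 for Ccl22 and 0.0321 for Il12b. The 6 neutrophil markers summed to 7.19 and 55.5 CPM, below the 202 and 711 CPM of T cells, with Csf3r, Cxcr2, Retnlg and Mmp9 at 0 in both libraries. Of the T cell markers, Cd8a, which some dendritic cells also express, had 1 to 8 UMIs in each of 7 control members. One of these had the single Trac UMI, while Cd3d, Cd4, Cd2 and Trbc2 were at 0, and 0 motolimod members had any. Keratin and endothelial or fibroblast markers were at 27.7 CPM or less. The part of free RNA in the differences between the libraries was not tested.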

How the data were processed

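The deposited values were raw UMI counts per gene and barcode, made by the authors with Cell Ranger and mm10. Its version is 5.0.1 per the submitters' processing notes and 7.1.0 per the file headers. Whether intron reads were counted is not given in the sources used here. Each table lists 32285 genes, and 38 symbols with more than 1 identifier were kept apart.

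Members, cDC1, cDC2 and T cells were taken by count rules, T cells as Cd3d, Cd3e and Cd3g of at least 3 UMIs together with at most 2 of H2-Ab1. cDC1, cDC2 and T cells kept the same keratin, C1q and Csf3r limits. UMIs were summed over the cells of a kind and library and scaled to CPM. CPM have exact Poisson, shares exact Clopper-Pearson and ratios exact conditional binomial 95% intervals. A gene at 0 was set to 3 counts for a bound. Genes used in the rules were left out of gene counts. Computation used Python 3.11.15, numpy 2.4.6, scipy 1.17.1, pandas 2.3.3, scanpy 1.11.5 (for Scrublet) and matplotlib 3.10.9. How many of the highest Scrublet scores were left out was set at 0.8% per 1000 barcodes. The code for ratios was tested on simulated data. Gene positions came from GENCODE for mm10 and promoters from RefSeq for GRCm38.p6.

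The members, lists and tests were chosen with earlier results of these data known. Genes named are members of the lists, the 10 highest and 10 lowest motolimod over control ratios, and the 15 highest and 10 lowest genes against cDC1 and cDC2. Ifi27l2a entered only through its ratio. Ddit3 and Marchf1 matched no symbol, and March1 was used for the latter. Alternatives changed the thresholds, the cell filter, the scaling, the level filter and the thinning, and left out the highest Scrublet scores.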

Additional observations from a re-analysis of the deposited data

How the results depend on the processing

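No paired analysis was possible because each group had 1 library and replicate numbers that only name it. No named gene past 2-fold changed direction in the alternatives that gave it a ratio. Without their top member Tnf and Nupr1 had no motolimod UMI left. Pf4 had none without the member that held its UMIs. No ratio was given for these genes there, so a reversal could not be seen. The median log2 ratios of 4 lists changed sign. That of the cytokines went from -0.22 to 0.06 with the mean of per-cell CPM and 0.18 with Fscn1 of at least 1 UMI. After thinning to 3000 UMIs those of NF-kB, transcription factors and MHC class I went from 0.29, 0.34 and 0.29 to -0.13, -0.06 and -0.02. Past 2-fold but within it after thinning were Laptm4b, Scin, Nub1, Cd70, Socs3, Birc2, Dusp1, Hspa1a and Klrd1. That list covers thinning only. Without the top member of each gene 88 of the 142 genes higher with motolimod stayed past 2-fold. Selenom, Birc2 and Dusp1 were among those that did not. Socs2 was at 1.97 with the mean of per-cell CPM, and Irf5 at 0.573 and Cd80 at 0.563 without the H2-Ab1 limit. Of the named genes within 2-fold, H2-K1, Rel and Nfkb2 went from above 1 to 0.995, 0.957 and 0.625 after thinning, Rel to 0.977 without its top members, and Oasl1 to 0.975 without the H2-Ab1 limit. The share ratio, 0.161, was 0.125 to 0.209 under the other alternatives planned and 0.333 after thinning to 3000 UMIs. The 142 genes higher and 96 lower with motolimod became 236 and 147 in thinned members, 364 and 225 at a mean of 50 CPM, and 996 and 598 with no CPM filter. Without the top member of each gene 57 were higher and 123 lower, so the balance turned. The 102 genes higher than in both other dendritic cells became 183 at 50 CPM and 364 with no filter, where more genes were compared. The cause of the changes with thinning was not tested. The 9 motolimod cells, 72095 UMIs in all, limit every ratio, since 1 UMI there equals 13.9 CPM.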

Other observations

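None of the 15 listed cell cycle genes reached 100 CPM, and 1 control cell held most of their control UMIs for several. Of the control UMIs of Ube2c, an enzyme of mitotic exit, 34 of 38 (89.5%) were in a single cell, and of those of Birc5, or survivin, 16 of 17 (94.1%) were. The 9 Cdk1 UMIs were all in the same cell, which also held 36 UMIs of cDC1 markers, the most of any member, with 20 of Wdfy4 and 8 of Naaa. Cenpa, a centromere histone, had 15 UMIs in that cell and 10 in another. Motolimod members held 1 UMI of Mki67 and 0 of Top2a, Ube2c and Birc5. One of them held 3 UMIs of Cenpa, and UMIs of Pcna, Mcm5, Mcm6 and Stmn1 were also found.

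The cells that met the rule except for H2-Ab1 held more Ccl5 than the members, at 17940 against 8434 CPM in the control and 27260 against 16590 CPM in the motolimod library. In the control they held less Il4i1 (371 against 778 CPM) and Il12b (371 against 919 CPM), and Ciita was at 0 UMIs in them in both libraries, against 32.4 and 166 CPM in members. Apoe, Lyz2 and Pf4 were at 0 in the 5 such motolimod cells.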
